A study of Mus musculus with 24 samples.

Results

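The receptor genes Alk, Ret, Ntrk2 and Ngfr and the ligand gene Alkal1 were described in NOS1+ N1E115 cells, a mouse neuroblastoma line that carries neuronal nitric oxide synthase. The labels give the tissue as brain and the cell type as neuroblast, and they do not say whether the line is 1 clone. Cells were kept for 3 days at 20% oxygen (the normoxic group) or 4% oxygen (the hypoxic group), and no other genotype or agent is named. Chromatin immunoprecipitation followed by sequencing (ChIP-seq) gave lists of enriched intervals for 5 histone marks, with 2 libraries for each mark and oxygen level. The 5 genes, out of 21887 protein-coding genes in the RefSeq table, were chosen by their peaks in these same libraries, including the H3K27ac regions found at 1 oxygen level only. The values below are therefore a description of the contrast that chose the genes, and no test was made of them. With 2 libraries against 2 the smallest exact permutation p would be 0.333, so that no single value could pass a threshold of 0.05.

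Alk encodes a receptor tyrosine kinase of the developing nervous system that is mutated or amplified in part of human neuroblastomas, and Alkal1 encodes one of its secreted ligands. Ret encodes the receptor kinase through which the GDNF family of ligands signals together with GFRα co-receptors. Ntrk2 encodes TrkB, the kinase receptor for BDNF and neurotrophin-4, and Ngfr encodes p75, a receptor without kinase activity that binds all neurotrophins. H3K4me3 is found at active or poised gene starts, H3K27ac at active starts and enhancers, and H3K4me1 mainly at enhancers. H3K36me3 lies over transcribed gene bodies, and H3K27me3 is laid down by Polycomb complexes over silenced genes.

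The gene start sequences are shown because the 3 starts held by the promoter table are all rich in CG dinucleotides while they carried different marks: H3K4me3 and H3K27ac lay at the starts of Alk and Ngfr in 4 of 4 libraries, and at that of Ntrk2 in 0 of 4. They are from RefSeq for GRCm38.p6, the assembly of mm10, and run from 250 bases before to 50 bases after the start, 5′ to 3′ on the gene's strand. Capitals mark ACGTG or GCGTG, the core letters of the hypoxia response element, on either strand. The Alk window is chr17:72604258-72604557 on the minus strand, the Ntrk2 window chr13:58806319-58806618 on the plus strand, and the Ngfr window chr11:95587649-95587948 on the minus strand. Ret and Alkal1 have no entry in the table.
Alk: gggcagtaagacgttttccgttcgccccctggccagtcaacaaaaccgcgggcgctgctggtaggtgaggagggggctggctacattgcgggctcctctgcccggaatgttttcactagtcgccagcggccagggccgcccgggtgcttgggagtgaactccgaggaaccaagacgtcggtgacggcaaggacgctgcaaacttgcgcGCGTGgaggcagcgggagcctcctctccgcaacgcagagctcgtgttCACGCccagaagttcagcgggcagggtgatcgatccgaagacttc
Ntrk2: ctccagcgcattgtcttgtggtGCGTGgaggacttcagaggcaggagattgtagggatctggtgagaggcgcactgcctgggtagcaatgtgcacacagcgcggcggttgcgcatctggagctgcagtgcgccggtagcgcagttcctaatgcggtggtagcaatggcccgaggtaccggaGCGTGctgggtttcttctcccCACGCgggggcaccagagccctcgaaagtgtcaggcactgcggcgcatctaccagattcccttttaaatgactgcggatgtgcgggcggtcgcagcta
Ngfr: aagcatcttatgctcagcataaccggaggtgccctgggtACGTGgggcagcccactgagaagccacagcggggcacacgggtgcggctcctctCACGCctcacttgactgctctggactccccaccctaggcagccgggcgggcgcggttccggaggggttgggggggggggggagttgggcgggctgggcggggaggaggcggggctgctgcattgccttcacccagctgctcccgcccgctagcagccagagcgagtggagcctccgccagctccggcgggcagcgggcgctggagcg

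GC content was 64% in the Alk window, 61.3% in that of Ntrk2 and 71.7% in that of Ngfr, against a median of 52.7% over 32851 promoters of the same length. They held 28, 23 and 23 CG dinucleotides, against a median of 7. ACGTG or GCGTG was found 2 times in the Alk window, 3 times in that of Ntrk2 and 2 times in that of Ngfr, and 43.8% of all promoters held at least 1 (ACGTG 19.6%, GCGTG 32.4%). In Alk the matches began 42 bases before the start and, on the other strand, at base 6 after it. AGATAA, a sequence bound by GATA factors (in 11.2% of promoters), and TAATTA, bound by homeodomain factors (in 5.29%), were in none of these 3 windows. A match of these letters is a description and not a binding site.

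Each library was called on its own, and libraries are named by oxygen level and by set, set 1 being replicate 1 and set 2 replicate 2 of the titles. The lists of H3K4me3, H3K27ac and H3K4me1 held 26489 to 126503 peaks, and their read depth is unknown. Islands of H3K36me3 and H3K27me3 held 8479517 to 25048785 reads per library. The total length under H3K4me1 peaks at 4% oxygen was 0.576 and 0.780 times that at 20% in sets 1 and 2, while for H3K27ac the ratios were 0.955 and 1.15. In set 1 the libraries of the 2 oxygen levels came from different flow cells for every mark but H3K4me1, so that oxygen and flow cell cannot be told apart there, while all libraries of set 2 shared a flow cell. The labels do not say whether replicate libraries stem from separate cultures, so the spread between them may be technical. The cell type label was checked at gene starts: 11 of 13 markers of noradrenergic neuroblastoma had H3K4me3 and H3K27ac in 4 of 4 libraries (Hand1 and Ddc did not), against 1 of 7 glial markers, 0 of 4 immune and 0 of 4 endothelial markers.

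The 5 genes fell into 2 kinds by their marks, at both oxygen levels. Alk, Ret and Ngfr carried H3K4me3, H3K27ac, H3K4me1 and H3K36me3 in 4 of 4 libraries and no H3K27me3 in any, counted over the gene record with 50 kb on either side (the window). The Ntrk2 window held H3K27me3 alone, in 4 of 4 libraries. The Alkal1 window held H3K27me3 in 4 of 4 libraries and short H3K4me3 peaks in 3 of 4, and none of the other marks.

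**Figure D1:**
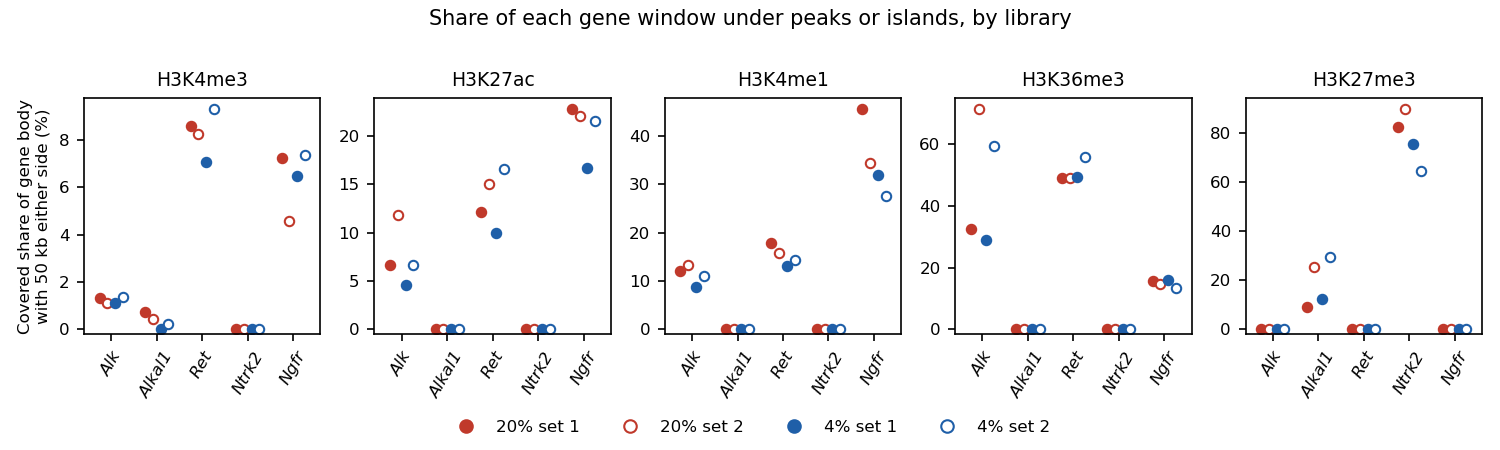
Each panel is 1 mark, and the y axis gives the share (%) of each gene's window, the gene body with 50 kb on either side, that lies under peaks or islands; each point is 1 library, red for 20% and blue for 4% oxygen, filled for set 1 and open for set 2. For H3K27ac over Alk both 20% points lie above both 4% points by a narrow margin, for H3K36me3 over Alk the points part by set, and Ntrk2 stands above 60% for H3K27me3 and at 0 for the other 4 marks.

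Alk, at chr17:71868988-72604702 and 735.7 kb long, held one of the longest totals of H3K27ac of any gene. Peaks covered 55.9 kb of its window in set 1 and 99.2 kb in set 2 at 20% oxygen, and 38.2 kb and 55.5 kb at 4% oxygen. Both 20% libraries were above both 4% libraries, but the lower 20% library and the higher 4% library differed by less than 1 kb. The means were 77.5 ± 30.6 kb at 20% and 46.9 ± 12.2 kb at 4% (SD, n = 2 each), a difference of -30.7 kb, about as large as the SD at 20%. The ratio of 4% to 20% was 0.684 in set 1 and 0.560 in set 2, against medians of 1.04 and 1.19 over the gene windows with H3K27ac in all 4 libraries. By its mean coverage the Alk window ranked 46th of 21887 genes for H3K27ac, 44th for H3K4me1 and 8th for H3K36me3; the length of the gene enters all 3 ranks.

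A change was counted where the covered length was at least 25% higher at 4% in both sets (a ratio at or above that bound), or lower by the inverse (a ratio of at most 0.8), for the windows that held a mark in all 4 libraries. For H3K27ac, 1 of the 3 windows with this mark, that of Alk, was lower at 4%, beside 2.48% of 15468 gene windows, and 0 of 3 were higher, beside 14.6%. For H3K4me1, 0 of 3 were lower, beside 72% of windows, and 0 higher, beside 0.129%. For H3K4me3, 0 of 3 were lower (0.959% of windows) or higher (0.211%), and for H3K36me3 0 of 3 were lower (5.37%) or higher (0.605%). For H3K27me3, 0 of the 2 windows that held it were lower (1.98%) or higher (16.4%). These shares describe the contrast used to choose the genes.

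The 20% library of set 2 stood apart over Alk. Of the 122 merged H3K27ac regions in the window, 106 had a peak in that library, against 40 in the 20% library of set 1 and 33 and 48 in the 4% libraries of sets 1 and 2. In 57 of the regions it was the only library with a peak, against 6, 2 and 8 regions for the other libraries in the same order. Without it the difference in covered length was -9.00 kb, and without the 20% library of set 1 it was -52.3 kb. Another 23 regions had a peak in all 4 libraries, and their median length was 2163 bp, against 309 bp for the 93 regions of mixed presence.

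Along Alk, H3K27ac was densest from 200 to 300 kb downstream of the start, inside the gene. There it covered 18.5 kb and 28.1 kb at 20% oxygen and 10.5 kb and 15.1 kb at 4% (sets 1 and 2), so that both 20% libraries were above both 4% libraries. In the stretch from 600 to 700 kb it covered 14.4 kb and 14.7 kb at 20% and 7.03 kb and 8.33 kb at 4%, ratios of 0.489 and 0.565, and here the sets lay close together. In the stretch from 100 to 200 kb the ratios were 1.24 in set 1 and 0.647 in set 2, and the groups overlapped. Over the last 35.3 kb no library had a peak. The longest region shared by all libraries, chr17:72330913-72342876, had 9249 bp and 11767 bp under peaks at 20% and 5848 bp and 8921 bp at 4%, and the groups did not overlap. A second, chr17:72289056-72295415, had 4978 bp and 6206 bp at 20% and 3885 bp and 4474 bp at 4%, again without overlap. These 100 kb stretches and shared regions were picked after their values were seen.

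**Figure D2:**
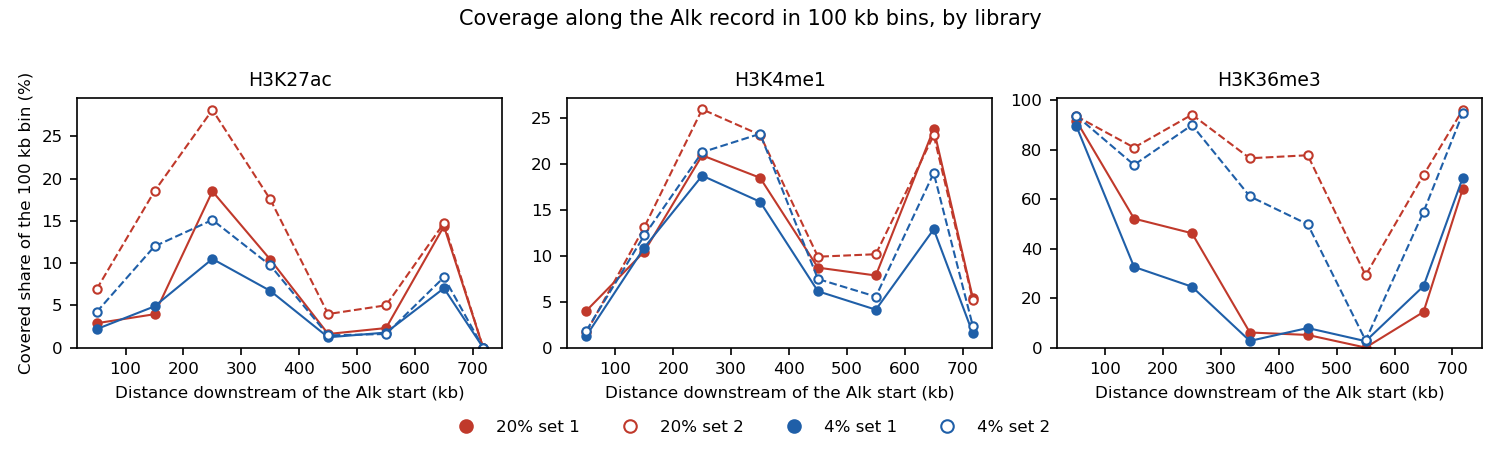
Share (%) of each 100 kb bin of the Alk record under H3K27ac, H3K4me1 or H3K36me3, against the distance downstream of the start in kb; each line is 1 library, red for 20% and blue for 4% oxygen, solid with filled points for set 1 and dashed with open points for set 2, and the last bin is 35.3 kb long. H3K27ac peaks at 200 to 300 kb and again at 600 to 700 kb, where both red lines lie above both blue ones. H3K36me3 past 100 kb parts by set and not by oxygen, except at 500 to 600 kb, where only 20% set 2 stands above the others.

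Of the 122 H3K27ac regions, 6 had peaks in both 20% libraries and neither 4% library (20%-only), and 0 the reverse (4%-only). All 6 were inside the gene, between 261 and 650 kb from the start, and none overlapped H3K4me3. The longest, chr17:71974273-71975330, had 1058 bp and 523 bp under peaks at 20%, and H3K4me1 in 4 of 4 libraries. Beside it, chr17:71973697-71974180 had 484 bp and 186 bp, with H3K4me1 in 3 libraries. The region chr17:72277090-72278131 had 535 bp and 892 bp, with H3K4me1 in all 4 libraries. It lay directly beside chr17:72275771-72277017, which had an H3K27ac peak in all 4 libraries. The short region chr17:72295487-72295767, with 184 bp and 281 bp, and chr17:72343086-72343754, with 210 bp and 669 bp, each lay directly beside one of the long shared regions above. Only chr17:71954530-71955046, with 378 bp and 265 bp, had H3K4me1 at 20% oxygen alone, in both libraries, and H3K36me3 in 3 of 4 libraries. Just outside this rule, 5 regions had a peak in both 20% libraries and 1 of the 4% libraries, and 5 in both 4% libraries and 1 of the 20% libraries.

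**Figure D3:**
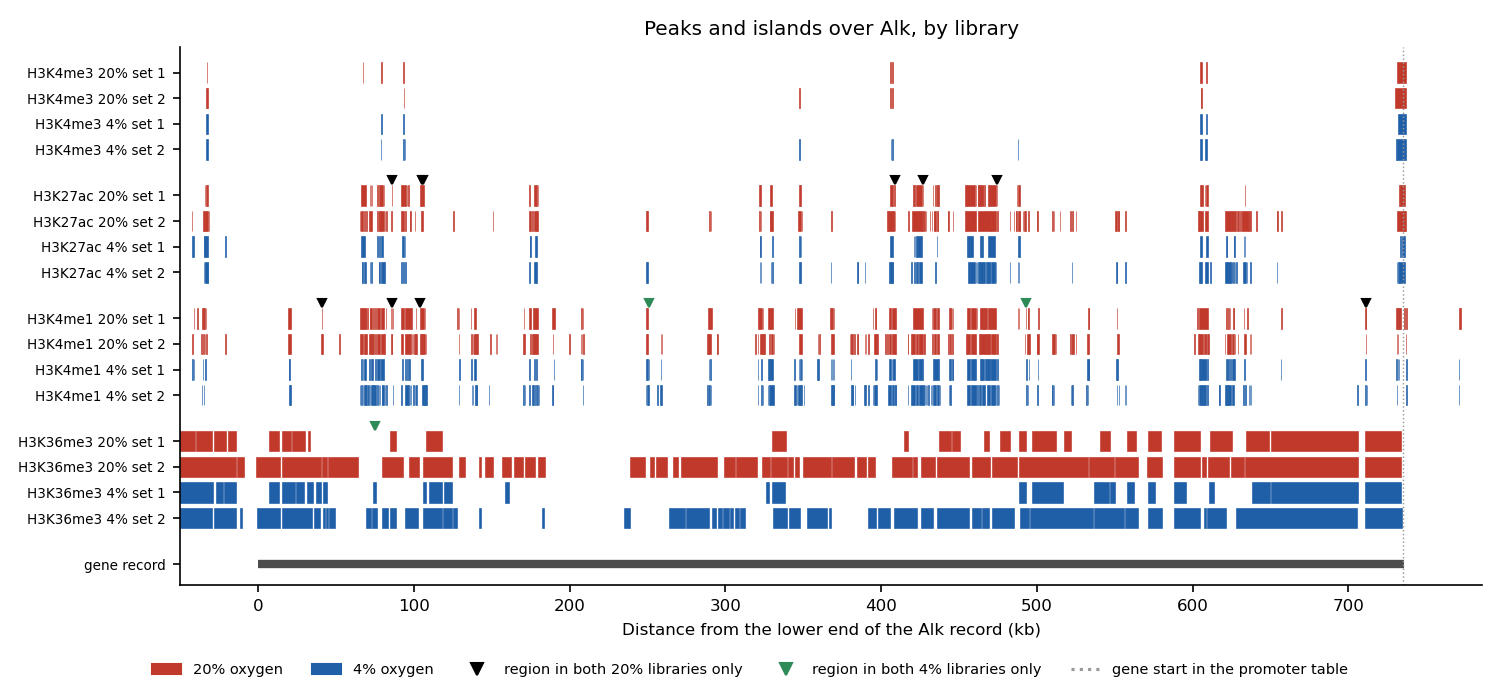
Peaks (H3K4me3, H3K27ac, H3K4me1) and islands (H3K36me3) over Alk and 50 kb on either side, 1 row per library, red for 20% and blue for 4% oxygen, against the distance in kb from the lower end of the gene record; the gene reads from right to left, from the dotted line. Black triangles, of which 2 over H3K27ac fall on each other, mark the 6 H3K27ac and 4 H3K4me1 regions in both 20% libraries only, green ones the 2 H3K4me1 regions and 1 H3K36me3 region in both 4% libraries only, and the row of 20% set 2 holds the most H3K27ac peaks.

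At the Alk start a wide H3K4me3 peak was 5538 bp and 5763 bp long at 20% and 5098 bp and 4851 bp at 4%, and both 20% peaks were longer than both 4% peaks. With neighbouring shorter peaks, the merged region chr17:72598961-72605970 held 5538 bp and 6822 bp at 20% and 5098 bp and 6214 bp at 4%, and the groups overlapped. H3K27ac in the region at the start covered 2894 bp and 4620 bp at 20% and 2191 bp and 3532 bp at 4%, and there too the groups overlapped. H3K4me1 covered 100.3 kb and 111.7 kb of the window at 20% and 72.7 kb and 92.5 kb at 4%, ratios of 0.725 and 0.828, beside the medians of 0.435 and 0.643 over all windows with this mark. Without the 4% library of set 1 its difference of -23.4 kb was -13.5 kb. For H3K4me1, 4 of 182 regions were 20%-only and 2 were 4%-only, namely chr17:72119599-72119932 and chr17:72362087-72362346.

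H3K36me3 over Alk differed more by set than by oxygen. It covered 271 kb and 597 kb of the window at 20% and 242 kb and 496 kb at 4%, so that set 2 was 2.20 times set 1 at 20% and 2.05 times at 4%. The difference between the levels, -64.9 kb, turned to 98 kb without the 20% library of set 2 and to 62.1 kb without the 4% library of set 1. The first 100 kb from the start were covered at 90 to 94.1 kb in every library, while from 300 to 400 kb the cover was 6.09 kb and 76.5 kb at 20% and 2.69 kb and 61.1 kb at 4%. Part of the cover below the gene lay over the neighbouring gene Clip4. The only region of this mark found at 1 level was chr17:71942401-71945600, with 2200 bp and 3200 bp at 4%, or 71 and 95 reads. Read density, in reads per covered kb for each 1000000 reads in islands, was highest in the region next to the start, chr17:72579601-72603400, at 3.35 and 4.51 at 20% and 3.26 and 4.09 at 4%, and the groups overlapped.

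Ret, at chr6:118151748-118197744, had one of the widest H3K4me3 peaks of each list and no region of any mark that was found at 1 oxygen level only. The peak at the upper end of the record was 7801 bp and 7681 bp long at 20% and 8033 bp and 10372 bp at 4%, and ranked 77th, 27th, 45th and 10th by length among the 26489 to 50496 peaks of its list. Both 4% peaks were longer than both 20% peaks, but neighbouring shorter peaks made up the gap: the merged region held 9759 bp and 9622 bp at 20% and 8033 bp and 10372 bp at 4%, and the groups overlapped. H3K27ac over the same end, chr6:118188916-118200869, covered 10843 bp and 10770 bp at 20% and 10793 bp and 11473 bp at 4%. These 4 values lay close together. Over the whole window H3K27ac covered 17.6 kb and 21.9 kb at 20% and 14.5 kb and 24.2 kb at 4%, and the 4% values lay on either side of those at 20%. The difference of -0.39 kb ran from -5.25 kb to 4.46 kb when 1 library was left out.

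H3K4me1 over the Ret window was 26.0 kb and 23.1 kb at 20% and 19.2 kb and 21.1 kb at 4%, with both 20% libraries above both 4% libraries. The ratios of 0.739 and 0.913 were above the medians of 0.435 and 0.643 over all windows with this mark. A single H3K36me3 island spanned the gene in each library, 46.8 kb and 46.6 kb at 20% and 47.6 kb and 48.4 kb at 4%. Its read density was 5.63 and 5.07 at 20% and 6.76 and 5.01 at 4%, in the same unit, with ratios of 1.20 and 0.988, so that the sets differed in direction. This density was above that of every Alk and Ngfr region in each library. A second H3K36me3 island and a second H3K4me3 region shared by all libraries, chr6:118137131-118139902, lay over the neighbouring gene Csgalnact2 and not over Ret.

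Ngfr, at chr11:95568818-95587698, is 18.9 kb long and was covered by H3K4me1, H3K27ac and H3K36me3 over much of its length. At its start the widest H3K4me3 peak was 4100 bp and 3097 bp at 20% and 3493 bp and 3657 bp at 4%, and the 4% values lay between those at 20%. H3K27ac covered 27.1 kb and 26.2 kb of the window at 20% and 19.9 kb and 25.6 kb at 4%, so that both 20% libraries were above both 4% libraries. The ratio was 0.734 in set 1 and 0.975 in set 2, and the difference of -3.93 kb was -1.08 kb without the 4% library of set 1 and -6.78 kb without that of set 2. H3K4me1 covered 54.2 kb and 40.9 kb at 20% and 38.0 kb and 32.8 kb at 4%, also without overlap. Its ratios of 0.700 and 0.802 were above the medians of 0.435 and 0.643 over all windows with this mark. The H3K4me1 difference of -12.2 kb was -5.50 kb without the 20% library of set 1 and -18.9 kb without that of set 2. The read density of H3K36me3 over the gene was 2.88 and 2.24 at 20% and 3.92 and 2.15 at 4%, with ratios of 1.36 and 0.959.

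Of 38 H3K27ac regions in the Ngfr window, 3 were 20%-only and 1 was 4%-only. A pair of neighbouring 20%-only regions lay just upstream of the start: chr11:95588783-95589452, 1.42 kb away, had 645 bp and 243 bp under peaks, and chr11:95589505-95589972, 2.04 kb away, had 251 bp and 405 bp. H3K4me1 was present in 4 of 4 libraries in both, and H3K4me3 in 0 of 4. The third, chr11:95636386-95636690, lay 48.8 kb upstream with 225 bp and 186 bp. The 4%-only region, chr11:95570085-95570458, lay inside the gene 17.4 kb from the start, with 325 bp and 344 bp at 4%, and had H3K4me1 and H3K36me3 in 4 of 4 libraries. Just outside the rule, 2 regions had a peak in both 20% libraries and 1 of the 4% libraries, and 2 in both 4% libraries and 1 of the 20% libraries. Another 13 regions were shared by all 4 libraries. The longest of these, chr11:95607499-95612387, had 4690 bp and 4616 bp at 20% and 3438 bp and 3940 bp at 4%, and the groups did not overlap. The one at the start, chr11:95584792-95587705, had 2781 bp and 2369 bp at 20% and 2762 bp and 2493 bp at 4%, and the groups overlapped. In chr11:95559454-95561969 both 4% libraries, at 1974 bp and 1916 bp, were above both 20% libraries, at 1704 bp and 639 bp. H3K4me3 had 1 region at 20% only, chr11:95533973-95534388, and H3K4me1 had 3.

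**Figure D4:**
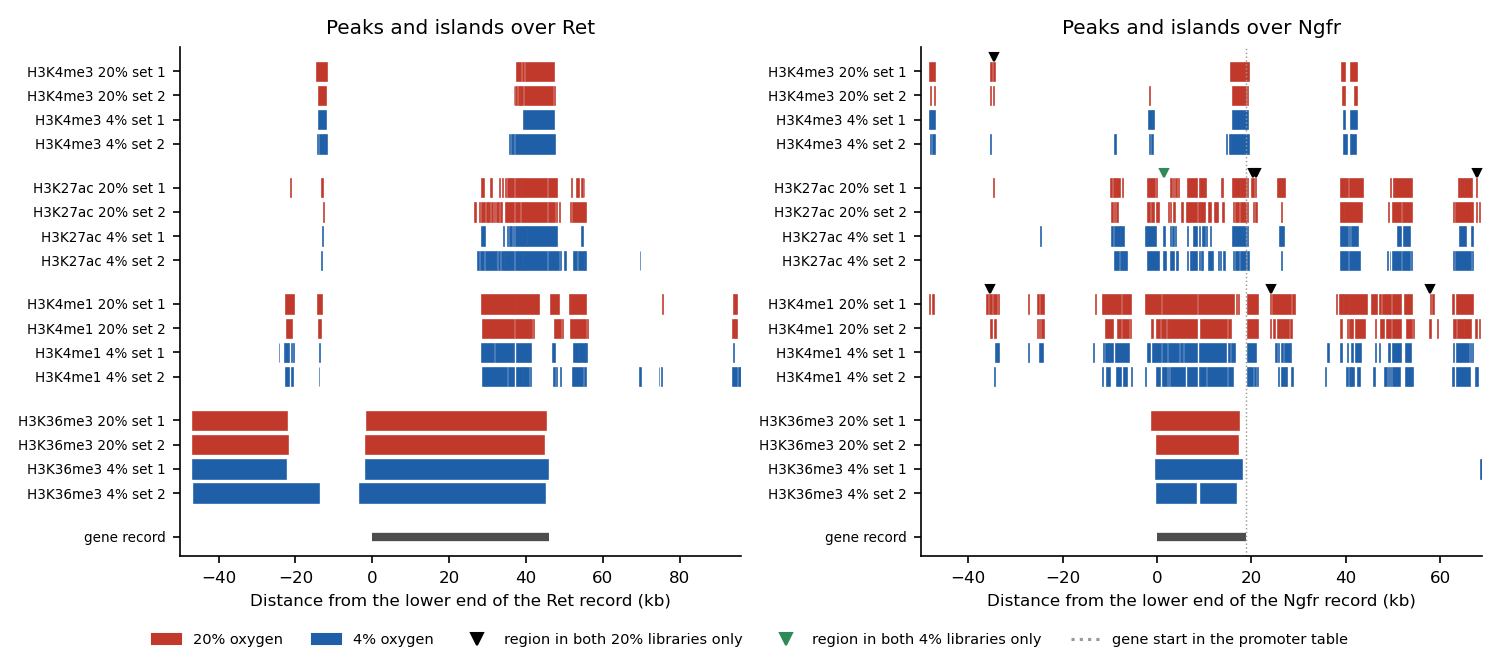
Peaks and islands over Ret (left) and Ngfr (right) with 50 kb on either side, 1 row per library, red for 20% and blue for 4% oxygen, against the distance in kb from the lower end of each gene record; the dotted line is the Ngfr start. No triangle stands over Ret, while Ngfr has 3 H3K27ac, 3 H3K4me1 and 1 H3K4me3 regions in both 20% libraries only (black) and 1 H3K27ac region in both 4% libraries only (green).

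Over the 5 windows together, 9 of 173 H3K27ac regions (5.20%) were 20%-only, beside 1.55% of all 97912 merged regions, and 1 of 173 (0.578%) was 4%-only, beside 2.59%. The top score of these 10 regions was at most 16.1 on the −log10 q scale, and the median top score of the regions shared by all 4 libraries was 44.9 over Alk, 19.3 over Ngfr and 30.7 over the 5 windows. Where only 1 library was needed at a level, the counts moved: there were 76 20%-only and 2 4%-only regions without the 20% library of set 1, 23 and 6 without the 20% library of set 2, 12 and 15 without the 4% library of set 1, and 15 and 6 without the 4% library of set 2. Thus without the 4% library of set 1 the 4%-only regions were the more numerous. For H3K4me3, 2 of 28 regions were 20%-only (beside 0.841%) and 0 were 4%-only (beside 0.482%). For H3K4me1, 7 of 233 were 20%-only (beside 6.22%) and 2 were 4%-only (beside 0.807%). For H3K36me3, 0 of 49 were 20%-only (beside 2.68%) and 1 was 4%-only (beside 1.01%). For H3K27me3, 2 of 14 were 20%-only (beside 2.92%) and 0 were 4%-only (beside 1.92%).

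Ntrk2, at chr13:58806472-59133970, held one of the longest totals of H3K27me3 of any gene, in 16 to 29 islands per library over its window. It carried no peak or island of the other 4 marks in any library. The nearest H3K27ac peak was 297 kb from the record in each library, and the nearest H3K4me3 peak was as far. H3K27me3 covered 352 kb and 383 kb of the 427 kb window at 20% oxygen, and 322 kb and 275 kb at 4%, so that both 20% libraries were above both 4% libraries. The ratios were 0.913 and 0.720, beside medians of 1.18 and 1.01 over all windows with this mark. The rank by mean coverage was 68th of 21887, and the length of the gene enters this rank. Its longest single island ranked 660th and 591st by length in the 20% lists and 2128th and 1349th in the 4% lists. The difference in covered length was -69.0 kb, and it was -46.0 kb without the 4% library of set 2.

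The islands left the Ntrk2 start itself free. Downstream of the start the first island began 2.23 kb away in both 20% libraries, and 3.03 kb and 2.43 kb away at 4%. Upstream the nearest island ended 9.37 kb and 7.37 kb before it at 20% and 13.8 kb and 10.8 kb before it at 4%. Read density over the first part of the gene, chr13:58808801-58890200, was 3.33 and 3.30 at 20% and 2.47 and 2.81 at 4%, in reads per covered kb for each 1000000 reads in islands. Over the middle, chr13:58919601-59100200, it was 3.12 and 2.46 at 20% and 2.32 and 2.01 at 4%. In both stretches the 20% libraries were above the 4% libraries, with ratios of 0.740 and 0.852 in the first and 0.744 and 0.818 in the second. The median ratios over regions of this mark were 0.864 in set 1 and 1.06 in set 2. In the shorter shared regions the groups overlapped and the sets differed in direction. The ratios were 0.793 and 1.09 in chr13:58890801-58917000 and 0.537 and 1.05 in chr13:59117001-59121400. None of the 5 H3K27me3 regions over Ntrk2 and Alkal1 shared by all libraries was at least 25% higher, or lower by the inverse, in both sets, beside 1.03% of 10177 such regions that were lower and 1.15% that were higher. For H3K36me3 it was 0 of 11 regions over Alk, Ret and Ngfr, beside 3.2% of 10858 that were higher and 0.479% that were lower. Toward the far end of Ntrk2, chr13:59108201-59114400 was 20%-only, with 5200 bp and 6200 bp, or 111 and 160 reads.

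**Figure D5:**
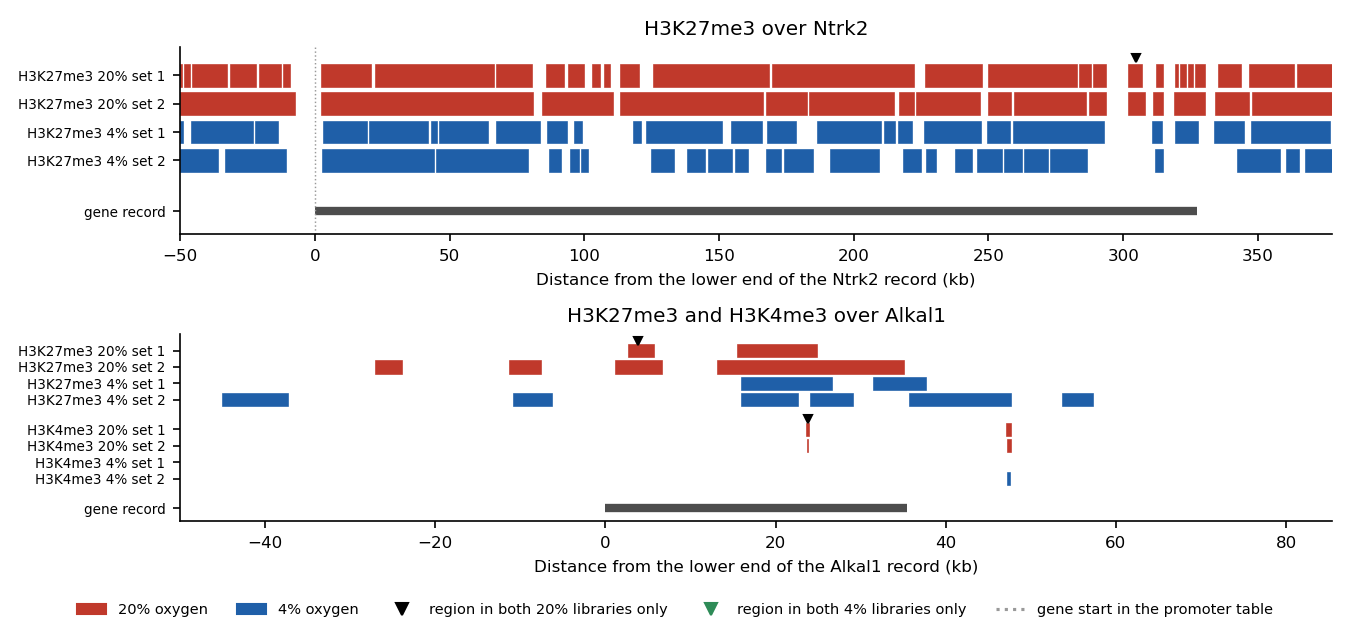
H3K27me3 islands over Ntrk2 (top) and H3K27me3 islands and H3K4me3 peaks over Alkal1 (bottom), each with 50 kb on either side, 1 row per library, red for 20% and blue for 4% oxygen, against the distance in kb from the lower end of the gene record; the dotted line is the Ntrk2 start. Islands cover most of Ntrk2 in all 4 libraries but leave its start free, and black triangles mark the regions in both 20% libraries only.

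Alkal1, at chr1:6359331-6394731, carried H3K27me3 over 35.0% and 78.0% of its record at 20% oxygen and 41.6% and 33.3% at 4%, and the groups overlapped. With the flanks H3K27me3 covered 12.4 kb and 34.6 kb of the window at 20% and 17 kb and 39.8 kb at 4%. The sets differed more than the oxygen levels, and the difference of 4.90 kb was of the other sign over the gene record alone, at -6.73 kb. It also turned to -6.20 kb without the 20% library of set 1 and to -6.50 kb without the 4% library of set 2. One island region in the gene, chr1:6360401-6366000, was 20%-only with 53 and 106 reads. Inside the gene a short H3K4me3 peak, chr1:6382912-6383278, was found at 20% only, with 367 bp and 218 bp under peaks and scores of 8.57 and 5.12. The nearest H3K27ac peak was 143 kb from the record in each library.

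The wider pathway was read from 56 other genes: 25 ligands, receptors and co-receptors, 20 adaptors and relays, and 11 feedback genes and targets. H3K4me3 was at the start of 11 of the 25, 17 of the 20 and 11 of the 11 in all 4 libraries, 39 of 56 in all (69.6%, beside 53.9% of all protein-coding genes). H3K27me3 was at the start of 8 of 56 (14.3%, beside 11.7%), 7 of them ligands or receptors. The neurotrophin gene Ntf3 had H3K27me3 over the record and none of the other marks, at 62.8 kb and 63.6 kb at 20% and 61.4 kb and 60.8 kb at 4%, and both 4% libraries were slightly below both 20% libraries. Alkal2, the other ALK ligand gene, had no H3K4me3, H3K27ac, H3K4me1 or H3K27me3 over its record in any library. It had H3K36me3 over 1.66 to 4.86 kb of the record in all 4 libraries. Ltk, the receptor related to ALK, had H3K4me3 over 3.04 to 3.31 kb.

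Regions found at 1 oxygen level were also counted over the records of these 56 genes, a list chosen with earlier results of these data known. H3K27ac was 20%-only over 4 genes (7.14%, beside 2.82% of all genes) and 4%-only over 1 (1.79%, beside 5.22%). The 4 were Ntrk3, the receptor for neurotrophin-3, Sort1, a co-receptor of p75, the adaptor gene Dok4 and the transcription factor gene Etv1, and the fifth was Lingo1, another partner of p75. The Ntrk3 region, chr7:78568536-78569027, had 492 bp and 254 bp under peaks at 20%. H3K4me1 was 20%-only over 15 genes (26.8%, beside 17.6%), among them Ntrk3 and Ptn, and 4%-only over 3 (5.36%, beside 2.93%). H3K4me3 was 20%-only over 1, Lingo1 (beside 0.635%), and 4%-only over 1, the adaptor gene Gab2 (beside 0.512%). H3K36me3 was 4%-only over Ltk and the adaptor gene Shc3 (3.57%, beside 0.676%) and 20%-only over the adaptor gene Grb2 (1.79%, beside 1.84%). The Ltk island, chr2:119750401-119757600, measured 7200 bp and 1800 bp in the 4% libraries. H3K27me3 was 20%-only over Ptprz1, a phosphatase that binds pleiotrophin (beside 0.941%), and 4%-only over 0 (beside 0.635%).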

How the data were processed

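ChIP-seq intervals of 20 libraries were used (5 marks, 2 oxygen levels, 2 libraries each); the 4 input samples have no file used here. Alignment used BWA and the mm10 build, with Picard as a further tool, per the submitters' processing notes; versions are not given in the sources used here. For H3K4me3, H3K27ac and H3K4me1 the deposited lists are MACS2 peaks called per library, per the file headers, and the deposited score is a −log10 value, taken as −log10 q from the layout. For H3K36me3 and H3K27me3 the deposited lists are SICER islands in steps of 200 bp, whose last column of whole numbers has no label and was read as the authors' read counts per island. Both are values per peak made by the authors and only describe peaks within a list. For the second library of each MACS2 mark the file listed under it holds summits, and its intervals came from a file listed under the first library; names and scores matched in 100% of entries.

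Groups came from the sample titles. Peaks of the 4 libraries of a mark on chromosomes 1 to 19, X and Y were merged where they overlapped or touched, and a library was counted as present with at least 1 bp. Covered length was counted in the gene record (RefSeq, GRCm38.p6) and with 50 kb on either side. A merged region of H3K36me3 or H3K27me3 in all 4 libraries was called higher at 4% where its read density was at least 25% higher in both sets, and lower by the inverse, and the same rule was later applied to covered length. A mark was at a gene start with a peak within 1000 bp, or of either end of the record where the promoter table has no entry. Calls were made across all genes or regions and set beside the members'. The code was tested on simulated intervals. The 5 genes and all lists were chosen with earlier results of these data known. Named genes were the 5, their H3K27ac regions at 1 level only, and pathway genes with such a region of any mark, at most 10 per mark, longest first, with a few not reported here; others named (Ntf3, Gdnf, Alkal2, Clip4, Csgalnact2 and the markers) were chosen after their values were seen. No test of any difference was run, since the contrast chose the genes. Python 3.11.15, NumPy 2.4.6 and Matplotlib were used. Alternatives were a score of at least 5, equal peak numbers, at least 50% of a region covered, peaks up to 500 bp apart merged, flanks of 10 kb, the gene record alone, the merged region as length and leaving out each library.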

Additional observations from a re-analysis of the deposited data

How the results depend on the processing

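Over the 5 windows, 1 H3K27ac region was 4%-only and 9 were 20%-only. With a score of at least 5 there were 0 and 4, with peaks up to 500 bp apart merged 0 and 4, with equal peak numbers 0 and 7, where peaks had to span 50% of a region 1 and 12, and with flanks of 10 kb 1 and 8. Leaving out 1 library at a time gave 2 to 15 4%-only and 12 to 76 20%-only regions, since a single library then decides presence at its level, and without the 4% library of set 1 the balance turned (15 against 12). Of 100 alternative values of the differences in covered length, 17 had the other sign, 12 of them with 1 library left out, and these fell on 7 of the 15 differences. Those of H3K27ac over Alk and Ngfr and of H3K4me1 over Alk, Ret and Ngfr kept their sign in every alternative run. The same held for H3K27me3 over Ntrk2 and H3K4me3 over Alkal1. In each of these both 20% libraries were above both 4% libraries. The difference of H3K36me3 over Ret, 5.2 kb, also kept its sign, and there both 4% libraries were above both 20% libraries. It was 0.4 kb over the gene record alone. With such a separation, leaving out 1 library could not change the sign, and only the other alternatives could have. The share of all gene windows that separated in this way is not given here. For H3K4me1, 72% of windows had a ratio of at most 0.8 in both sets. For H3K36me3 over Alk the difference ran from -227.8 kb to 98 kb with 1 library left out. For H3K27me3 over Alkal1 it ran from -6.50 kb to 16.3 kb, and was -6.73 kb over the gene record alone. Of 96 alternative values of the log2 read density ratio, 25 had the other sign, 20 of them with 1 library left out, over 13 of 16 regions. The region over Alk at chr17:71974601-71993600 ran from -0.046 to 0.44, and the one at chr17:72579601-72603400 from -0.31 to 0.12, with 1 library left out. The cause of these changes was not tested. Depth is unknown for the MACS2 marks, so a region absent from a list may lie just under the authors' threshold.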

Other observations

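Gdnf, the founding ligand of the RET system, had H3K4me3 and H3K27me3 within 1000 bp of the same start in all 4 libraries, as did 1.57% of all protein-coding genes. It had 1.02 kb and 1.30 kb of H3K4me3 over its record at 20% oxygen and 1.01 kb and 1.19 kb at 4%. Its H3K27me3 covered 17.4 kb and 26.7 kb at 20% and 22.7 kb and 27.5 kb at 4%, and the groups overlapped. It held no H3K27ac, H3K4me1 or H3K36me3 in any library. Whether both marks lay on the same chromatin was not tested. Gdnf was singled out after its values were seen.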
